A study of Homo sapiens with 8 samples.

Results

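The genes described here are 10 regulators of the G1 phase and of entry into S phase, picked by symbol: the D-type cyclins *CCND1*, *CCND2* and *CCND3*, their kinases *CDK4* and *CDK6*, the E-type cyclins *CCNE1* and *CCNE2*, their kinase *CDK2*, the inhibitor *CDKN1B* and the retinoblastoma gene *RB1*. They are 10 of the 20030 gene rows, and 9 of them were among the 10677 genes that reached at least 1 FPKM in at least 2 of the 8 libraries and were tested. FPKM is a gene's number of sequenced fragments scaled to its transcript length and to the fragments mapped in the library, so levels of different genes are compared here per length. The gene left out by this filter was *CCND2*.

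RNA was sequenced from HCT-116, an established human colorectal cancer cell line, after transfection of small interfering RNA (siRNA). The groups were 2 libraries with a non-targeting siRNA (siNC), 3 libraries with a siRNA against *HHEX*, a homeobox transcription factor (siHHEX), 2 libraries with siRNAs against *YAP1* and *WWTR1*, which encode the coactivators YAP and TAZ (siYAP/TAZ), and 1 library with siRNAs against the 4 TEAD transcription factors (siTEAD1/2/3/4). Within siHHEX and siYAP/TAZ each library carried its own siRNA or pair of siRNAs, so the spread of a group holds the difference between siRNAs, and all the libraries came from this single cell line. The study asked whether HHEX acts together with the YAP/TEAD complex, and *CCND1* is a well-known target of that complex.

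In G1, mitogens raise the D-type cyclins, which bind CDK4 or CDK6. These kinases begin the phosphorylation of RB1, which otherwise holds E2F transcription factors inactive at the promoters of S phase genes. Cyclin E with CDK2 completes the phosphorylation, and the CDKN1B protein p27 inhibits CDK2 and is also held in complexes of cyclin D with CDK4 or CDK6. E2F factors in turn drive *CCNE1*, *CCNE2* and genes of DNA replication, and TEAD factors with YAP or TAZ drive growth genes in epithelial and cancer cells.

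The knocked-down genes were read first. *HHEX* was at 8.60 and 9.06 FPKM in siNC 1 and 2, and at 3.25, 3.54 and 1.85 FPKM in siHHEX 1, 2 and 3, which lay below both siNC libraries. Its log2 change, on the log2(FPKM + 1) scale used for every change below, was -1.37 (SE 0.217, limma adjusted p = 0.0054). Unless another setting is named, each adjusted p is from 1 limma fit of all libraries, with Benjamini-Hochberg adjustment over the 10677 genes. A gene is said to have been called, to have risen or to have fallen where its adjusted p is under 0.05. *WWTR1* was at 6.80 and 6.72 FPKM in siNC and at 2.64 and 2.58 FPKM in siYAP/TAZ, a log2 change of -1.10 (SE 0.195, limma adjusted p = 0.0156). *YAP1* was at 20.2 and 19.7 FPKM in siNC and at 6.90 and 8.39 FPKM in siYAP/TAZ. Both siYAP/TAZ libraries lay below siNC, but the log2 change of -1.28 (SE 0.383) missed the threshold (limma adjusted p = 0.0681). It was called when libraries were corrected for GC content and transcript length, as described further on (-1.40, limma adjusted p = 0.0350). *YAP1* also fell in siHHEX, to 5.77, 17.4 and 6.93 FPKM in siHHEX 1, 2 and 3, with a log2 change of -1.07 (limma adjusted p = 0.0429), a call that was lost in the corrected libraries (-0.76, limma adjusted p = 0.161). *TEAD1* fell in siHHEX too, to 6.99, 10.2 and 5.30 FPKM from 18.3 and 19.0 FPKM, with a log2 change of -1.25 (limma adjusted p = 0.0064), and kept its call in the corrected libraries (-0.91, limma adjusted p = 0.0189). *TEAD2* rose in siHHEX, to 6.50, 8.02 and 7.18 FPKM from 4.10 and 3.47 FPKM, with a log2 change of 0.78 (limma adjusted p = 0.0071), a call lost in the corrected libraries (0.47, limma adjusted p = 0.0740). *TEAD4* was not called in siHHEX (-0.11, limma adjusted p = 0.503) but was called lower there in the corrected libraries (-0.51, limma adjusted p = 0.0310). *WWTR1* was not called in siHHEX (-0.06, limma adjusted p = 0.820), nor in the corrected libraries (0.31, limma adjusted p = 0.366). *TEAD4* fell in siYAP/TAZ, to 12.5 and 13.6 FPKM, with a log2 change of -0.63 (limma adjusted p = 0.0250). In the library labelled siTEAD1/2/3/4, *TEAD4* was at 5.56 FPKM against 20.3 and 21.3 FPKM in siNC, and *TEAD1* was at 9.02 FPKM. *TEAD2* was at 2.73 FPKM there against 4.10 and 3.47 FPKM, whereas *TEAD3* was at 9.08 FPKM against 7.36 and 6.99 FPKM in siNC, so the RNA of *TEAD3* did not go with the label.

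The cell line label was compared with marker genes. Of 7 epithelial and colon markers, 6 were at or above 1 FPKM in every library and *VIL1* was below 1 FPKM in every library. *KRT8*, a keratin of simple epithelia and the most abundant of them, ranged from 897 FPKM in siYAP/TAZ 2 to 1757 FPKM in siHHEX 3. The 7 markers summed to between 3119 and 3660 FPKM in siNC and siHHEX, 2032 and 1977 FPKM in siYAP/TAZ and 2717 FPKM in the library labelled siTEAD1/2/3/4, and the part of this in the results for G1 genes was not tested. All 4 leukocyte and all 3 endothelial markers were below 1 FPKM in every library, as were 4 of 5 fibroblast markers. The remaining fibroblast marker, *COL1A1*, was between 0.647 and 2.04 FPKM. Below 1 FPKM, *COL1A2* was highest in siHHEX 3 and siYAP/TAZ 2 (0.124 and 0.273 FPKM), as were *COL3A1* (0.235 and 0.283 FPKM) and *PTPRC* (0.101 and 0.0786 FPKM). Other markers did not follow this, with *PDGFRB* highest in siHHEX 2 and *CD14* in siNC 1. siHHEX 3 and siYAP/TAZ 2 also had the fewest genes listed at 0 (5361 and 4996). The source of these low values was not tested. In such bulk libraries, fewer cells in a phase of the cell cycle and less RNA of a gene per cell cannot be told apart.

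In siNC the levels of the G1 regulators spread over a wide range. *CCND1* was the most abundant, at 430.4 ± 15.0 FPKM (mean ± SD, n = 2), and only 1.08% of the tested genes were higher. *CDK4* followed at 134.8 ± 5.17 FPKM, then *CDK2* at 58.6 ± 0.415 FPKM, *CCNE1* at 39.0 ± 0.655 FPKM, *CCND3* at 21.1 ± 1.59 FPKM and *CDKN1B* at 16.5 ± 0.796 FPKM. The siNC libraries of each of these genes lay apart from those of the next. *RB1*, at 12.2 ± 0.301 FPKM, *CCNE2*, at 11.2 ± 1.51 FPKM, and *CDK6*, at 10.03 ± 0.766 FPKM, stood close together, and the siNC libraries of *CCNE2* overlapped those of both neighbours. *CCND2* was listed at 0 in siNC 1 and 2.

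**Figure D1:**
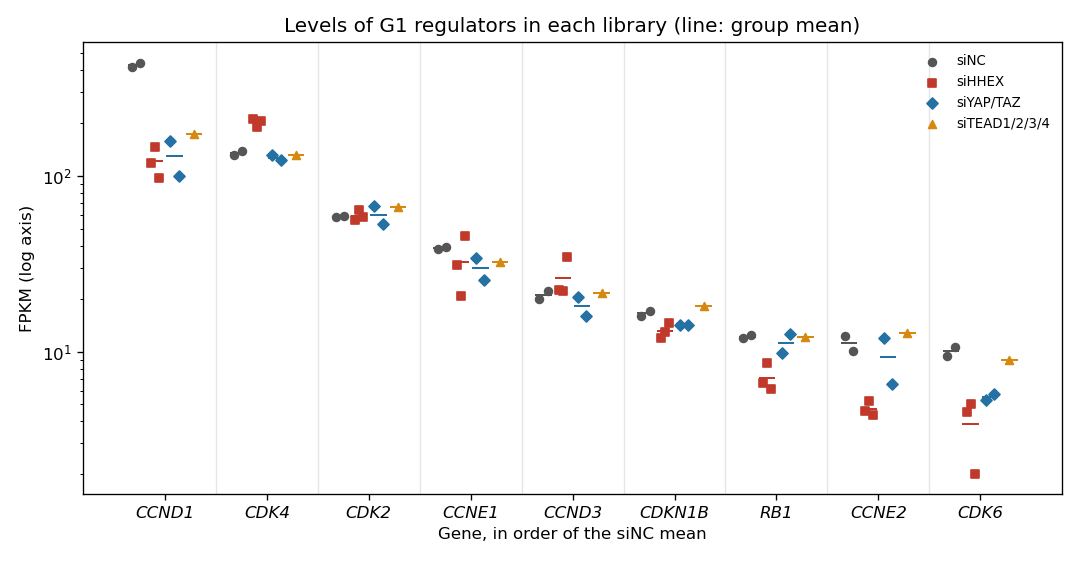
Level of 9 G1 regulators in each library, in FPKM on a log axis, with genes in the order of their siNC mean; each point is a library and each line the mean of a group. *CCND1* lies near 430.4 FPKM in siNC and between 97.6 and 174 FPKM in the other 6 libraries, and *CDK4* is the highest of these genes in the 3 siHHEX libraries.

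Of the 9 tested regulators, 4 were lower in siHHEX than in siNC at an adjusted p under 0.05 (*CCND1*, *CCNE2*, *CDK6* and *RB1*) and 1 was higher (*CDK4*). Across all tested genes, 16.9% were lower and 16.0% were higher in siHHEX by the same test. In siYAP/TAZ 1 of the 9 was lower (*CCND1*) and 0 were higher, against 2.13% lower and 6.15% higher of all tested genes. In the library labelled siTEAD1/2/3/4, which is a single library and was given no test of single genes, 1 of the 9 was more than 2-fold lower (*CCND1*) and 0 were more than 2-fold higher, against 0.478% and 0.412% of all tested genes. The siHHEX and siYAP/TAZ comparisons share their siNC libraries. With siNC 2 as the only control, the siHHEX calls other than *CCND1* were lost, at limma adjusted p = 0.104 for *CDK4*, 0.0915 for *CDK6*, 0.107 for *CCNE2* and 0.119 for *RB1*, and with siNC 1 as the only control they were lost too, at 0.0752, 0.0857, 0.0697 and 0.108. Over all tested genes, no more than 0.112% were then lower and 0.140% higher in siHHEX. The median log2 change of the 9 regulators was -0.33 in siHHEX, -0.22 in siYAP/TAZ and 0.00 in the library labelled siTEAD1/2/3/4, beside -0.01, 0.08 and 0.06 for all tested genes.

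By the stricter rule of a change above 2-fold with an unadjusted limma p under 0.05, the siHHEX count was 3 lower (*CCND1*, *CCNE2* and *CDK6*) and 0 higher of the 9, against 0.927% and 0.702% of all tested genes. In siYAP/TAZ it was 1 lower (*CCND1*) and 0 higher, against 0.431% and 1.14%. Between siHHEX and siYAP/TAZ it was 0 lower and 0 higher, against 1.28% and 0.234%.

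Counted without a test, the siHHEX libraries lay wholly below siNC for 5 of the 9 (*CCND1*, *CDK6*, *CCNE2*, *CDKN1B* and *RB1*) and wholly above it for *CDK4*. The same held for 33.8% of all tested genes below and 33.1% above. The siYAP/TAZ libraries lay wholly below siNC for 5 of the 9 (*CCND1*, *CDK4*, *CDK6*, *CCNE1* and *CDKN1B*) and wholly above it for 0, against 24.8% below and 42.9% above over all tested genes.

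Cyclin D1, encoded by *CCND1* on chromosome 11 from 69641156 to 69654474 on the plus strand (GRCh38, GENCODE annotation, 5 exons), showed the biggest fall of the 9 genes in each of the 3 knockdowns. *CCND1* was at 419.8 and 441 FPKM in siNC 1 and 2. It was at 119, 147 and 97.6 FPKM in siHHEX 1, 2 and 3, at 159 and 100.5 FPKM in siYAP/TAZ 1 and 2 and at 174 FPKM in the library labelled siTEAD1/2/3/4. All 6 knockdown libraries lay far below the siNC libraries, and the siHHEX and siYAP/TAZ libraries overlapped each other. In siHHEX it averaged 28.1% of its level in siNC, with a log2 change of -1.84 (SE 0.206, limma adjusted p = 0.0035). In siYAP/TAZ it averaged 30.2% of its level in siNC, with a log2 change of -1.76 (SE 0.226, limma adjusted p = 0.0061). The library labelled siTEAD1/2/3/4 was at 40.3% of the siNC mean, a log2 change of -1.30 without a replicate check. Without siNC 1 or siNC 2 the siYAP/TAZ change kept its size but not its call (limma adjusted p = 0.0508 and 0.0625). siHHEX 2, in which *YAP1* stood at 17.4 FPKM, had the highest *CCND1* of the 3 siHHEX libraries, and its log2 change from the siNC mean was -1.55 against -1.84 and -2.13 in siHHEX 1 and 3. The siHHEX fall of *TEAD1* was likewise smallest in siHHEX 2. So was the fall of *HHEX* itself, which was at 3.25, 3.54 and 1.85 FPKM in siHHEX 1, 2 and 3. Over these libraries *HHEX* and *TEAD1* followed the order of *CCND1*, whereas *YAP1* was lower in siHHEX 1 than in siHHEX 3. Whether the levels of *HHEX*, *YAP1* or *TEAD1* had a part in the size of the fall of *CCND1* in siHHEX was not tested.

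The other D-type cyclins did not move in this way. *CCND2* (chromosome 12, 4269771 to 4305353, plus strand) was at 0.120 FPKM in siHHEX 3, 0.0134 and 0.0781 FPKM in siYAP/TAZ 1 and 2, and was listed at 0 in the other 5 libraries. It was thus highest in siHHEX 3 and siYAP/TAZ 2, the libraries with the highest *COL1A2*, and the source of these values was not tested. *CCND3* (chromosome 6, 41934934 to 42050357, minus strand) was at 20.01 and 22.3 FPKM in siNC, 22.5, 22.1 and 34.6 FPKM in siHHEX, 20.5 and 15.9 FPKM in siYAP/TAZ and 21.7 FPKM in the library labelled siTEAD1/2/3/4. siHHEX 3 stood above all other libraries, the siHHEX libraries overlapped siNC and lay above both siYAP/TAZ libraries, and siYAP/TAZ overlapped siNC. The log2 changes of *CCND3* were 0.28 in siHHEX (95% interval -0.17 to 0.73, limma adjusted p = 0.290, and 0.07 without siHHEX 3) and -0.22 in siYAP/TAZ (95% interval -0.71 to 0.28, limma adjusted p = 0.561).

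Since TEAD factors were among the targets, promoters were searched for the TEAD letters CATTCC on both strands. The RefSeq promoter table (GRCh38.p14, 250 bases before to 50 after each start) held 9 entries for 6 of the genes, namely *CCND3*, *CDK4*, *CDK6*, *CCNE1*, *CDKN1B* and *RB1*. It held none for *CCND1*, *CCND2*, *CDK2* and *CCNE2*, so the promoters of these genes were not searched. The letters occurred in 14.0% of all 35116 entries and in 1 of these 9, an entry of *CCND3*, whose match is printed with 12 bases on each side because it is the only one found, at chr6:41941832-41941861. It is read on the minus strand, the strand of the gene, and the capitals mark the match, which begins 41 bases before the start site.
CCND3: gcgacgtccgagCATTCCacggttgctaca
The E2F letters TTTGGCGC, TTTCCCGC, TTTCGCGC and TTTGCCGC, searched on both strands, occurred in 3.31% of all entries and in 0 of the 9.

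The make-up of the D-type cyclin RNA was read from the same values. *CCND1* was 95.5% and 95.2% of the summed D-type cyclin FPKM in siNC 1 and 2, 84.2%, 86.9% and 73.8% in siHHEX 1, 2 and 3, 88.6% and 86.3% in siYAP/TAZ and 88.9% in the library labelled siTEAD1/2/3/4. All 6 knockdown libraries lay below siNC. The mean share differed from siNC by -13.7 percentage points in siHHEX (exact permutation test, two-sided, p = 0.2) and by -7.87 percentage points in siYAP/TAZ (exact permutation test, two-sided, p = 0.333). These are the smallest p-values that 3 against 2 and 2 against 2 libraries give, so the design cannot reach 0.05, and adjusted over the 6 share comparisons made both were 0.4. The sum itself was 451.6 ± 16.6 FPKM in siNC (SD, n = 2), 148 ± 18.9 FPKM in siHHEX (SD, n = 3), 148 ± 44.8 FPKM in siYAP/TAZ (SD, n = 2) and 195 FPKM in the library labelled siTEAD1/2/3/4.

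**Figure D2:**
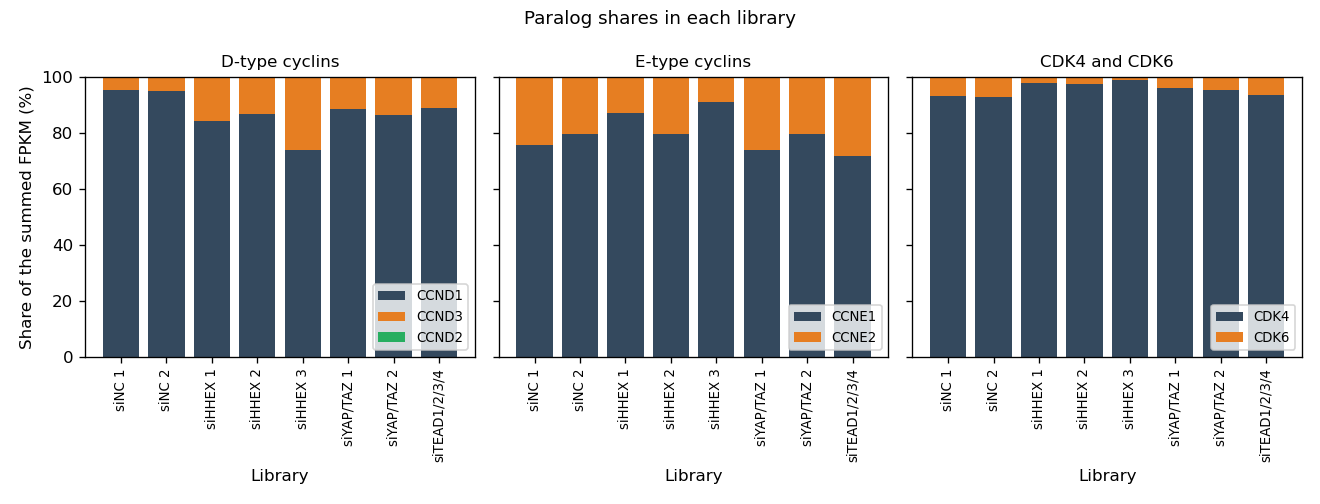
Share of the summed FPKM held by each paralog, in percent from 0 to 100, in each library, for the D-type cyclins, the E-type cyclins and CDK4 with CDK6. The *CCND1* share is 95.5% and 95.2% in siNC and at most 88.9% in the other libraries, and the *CDK4* share is above 97% in the 3 siHHEX libraries.

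The 2 kinases that partner D-type cyclins moved in opposite directions in siHHEX. *CDK4* (chromosome 12, 57747727 to 57756013, minus strand, 8 exons) was at 131 and 138 FPKM in siNC, 211, 190.2 and 205 FPKM in siHHEX, 131 and 123 FPKM in siYAP/TAZ and 132 FPKM in the library labelled siTEAD1/2/3/4. All 3 siHHEX libraries lay above the other 5, while siYAP/TAZ lay just below siNC. The log2 change was 0.58 in siHHEX (SE 0.0987, limma adjusted p = 0.0067), with a mean at 149.8% of siNC. In siYAP/TAZ it was -0.09 (95% interval -0.33 to 0.16, limma adjusted p = 0.650). The difference between siHHEX and siYAP/TAZ was itself tested and was 0.66 (SE 0.0987, limma adjusted p = 0.0042).

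*CDK6* (chromosome 7, 92604921 to 92836573, minus strand, 8 exons) was far less abundant. It was at 9.49 and 10.6 FPKM in siNC, 4.52, 5.04 and 2.02 FPKM in siHHEX, 5.30 and 5.70 FPKM in siYAP/TAZ and 8.95 FPKM in the library labelled siTEAD1/2/3/4. The siHHEX and siYAP/TAZ libraries lay below siNC without overlap, siHHEX 3 was the lowest, and the library labelled siTEAD1/2/3/4 stayed near siNC. *CDK6* fell in siHHEX to 38.5% of the siNC mean, a log2 change of -1.24 (SE 0.258, limma adjusted p = 0.0107), and was at -0.81 in libraries corrected for GC content and length, just short of a call (limma adjusted p = 0.0530). In siYAP/TAZ it was at 54.9% of the siNC mean, with a log2 change of -0.76 (SE 0.283, 95% interval -1.40 to -0.13) that missed the threshold (limma adjusted p = 0.120). That change was called when only the groups compared were fitted (limma adjusted p = 0.0181) and without siHHEX 3, which changed only the shared estimate of the spread (limma adjusted p = 0.0143).

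*CDK4* held 93.3% and 92.9% of the summed *CDK4* and *CDK6* FPKM in siNC, 97.9%, 97.4% and 99.0% in siHHEX, 96.1% and 95.6% in siYAP/TAZ and 93.7% in the library labelled siTEAD1/2/3/4. The mean share was 5.03 percentage points above siNC in siHHEX (exact permutation test, two-sided, p = 0.2) and 2.76 above it in siYAP/TAZ (exact permutation test, two-sided, p = 0.333), again the smallest p-values the design gives. The sum of both kinases was 145 ± 5.93 FPKM in siNC (n = 2), 206 ± 10.1 FPKM in siHHEX (n = 3) and 132.6 ± 5.40 FPKM in siYAP/TAZ (n = 2), as mean ± SD.

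The ratio of *CCND1* to *CDK4* FPKM put these changes together. It was 3.20 and 3.18 in siNC 1 and 2, 0.566, 0.771 and 0.476 in siHHEX 1, 2 and 3, 1.22 and 0.817 in siYAP/TAZ and 1.31 in the library labelled siTEAD1/2/3/4. In every siHHEX library *CDK4* RNA was therefore more abundant per length than *CCND1* RNA, the reverse of siNC. In siYAP/TAZ the order differed between its 2 libraries.

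**Figure D3:**
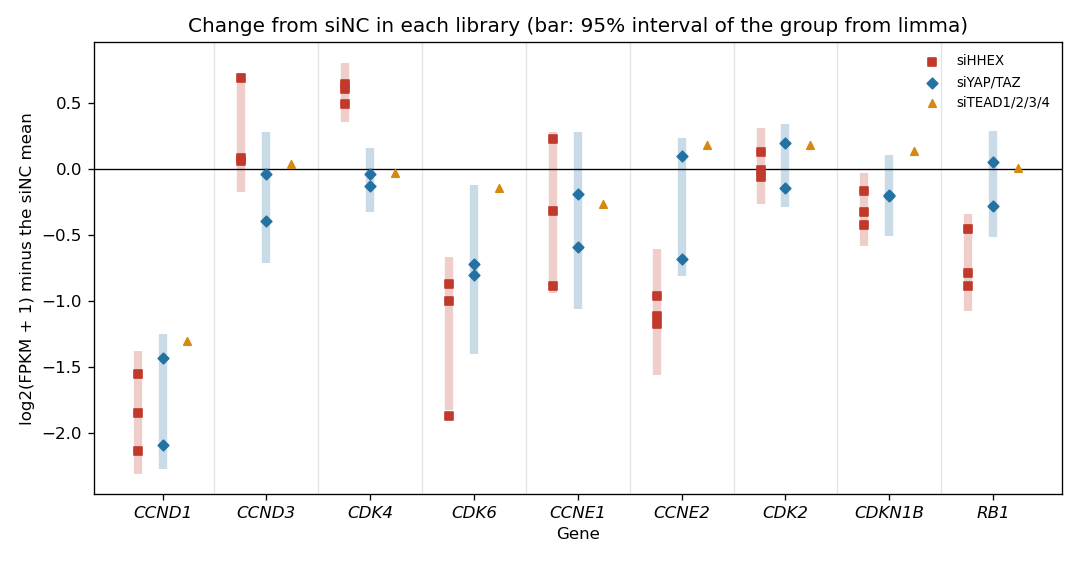
Change of each tested regulator from the siNC mean, on the log2(FPKM + 1) scale; points are libraries and bars the 95% interval of the group change from limma. The intervals of *CCND1* run from -2.30 to -1.38 in siHHEX and from -2.27 to -1.25 in siYAP/TAZ, and *CDK4* is above 0 in siHHEX.

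The E-type cyclins differed from each other. *CCNE1* (chromosome 19, 29811991 to 29824312, plus strand, 12 exons) was at 38.6 and 39.5 FPKM in siNC, 31.1, 20.6 and 45.7 FPKM in siHHEX, 34.1 and 25.6 FPKM in siYAP/TAZ and 32.3 FPKM in the library labelled siTEAD1/2/3/4. The siHHEX libraries ran from the lowest to the highest of all 8, on both sides of siNC. Its log2 changes were -0.33 in siHHEX (SE 0.270, limma adjusted p = 0.356) and -0.39 in siYAP/TAZ (SE 0.296, limma adjusted p = 0.428). Single libraries set the size of both. The siHHEX change was -0.60 without siHHEX 3 (limma adjusted p = 0.0641) and -0.05 without siHHEX 2 (limma adjusted p = 0.862), and the siYAP/TAZ change was -0.59 without siYAP/TAZ 1 (limma adjusted p = 0.346) and -0.19 without siYAP/TAZ 2 (limma adjusted p = 0.849). A fit with a block on the replicate number, which leaves siHHEX 3 out of the siHHEX change, called *CCNE1* lower in siHHEX. That call was lost when libraries were also corrected for GC content and length.

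*CCNE2* (chromosome 8, 94879770 to 94896678, minus strand, 12 exons) was at 12.2 and 10.1 FPKM in siNC and at 4.61, 5.22 and 4.37 FPKM in siHHEX. In siYAP/TAZ it was at 12.0 and 6.57 FPKM, and in the library labelled siTEAD1/2/3/4 at 12.7 FPKM. The siHHEX libraries were close to each other and below the other 5, while siYAP/TAZ 1 lay within siNC and siYAP/TAZ 2 below it. *CCNE2* fell in siHHEX to 42.4% of the siNC mean, a log2 change of -1.08 (SE 0.211, limma adjusted p = 0.0091), but was at -0.62 and not called in libraries corrected for GC content and length (limma adjusted p = 0.124). Its log2 change in siYAP/TAZ was -0.29 (95% interval -0.81 to 0.23, limma adjusted p = 0.454), and the log2 difference of siHHEX from siYAP/TAZ was -0.79 (SE 0.211, limma adjusted p = 0.0184). The call of this difference was lost without siYAP/TAZ 1 (-0.40, limma adjusted p = 0.112) and without siHHEX 1 (-0.78, limma adjusted p = 0.0514).

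*CCNE1* held 75.9% and 79.6% of the summed E-type cyclin FPKM in siNC, 87.1%, 79.8% and 91.3% in siHHEX, 74.0% and 79.6% in siYAP/TAZ and 71.7% in the library labelled siTEAD1/2/3/4. The siHHEX libraries were at or above siNC, with siHHEX 2 only just above siNC 2. The mean share was 8.29 percentage points above siNC in siHHEX (exact permutation test, two-sided, p = 0.2) and differed from siNC by -1.01 in siYAP/TAZ (exact permutation test, two-sided, p = 0.667).

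*CDK2*, the partner of the E-type cyclins (chromosome 12, 55966781 to 55972789, plus strand, 7 exons), was at 58.3 and 58.9 FPKM in siNC, 56.2, 64.1 and 58.2 FPKM in siHHEX, 67.2 and 53.0 FPKM in siYAP/TAZ and 66.5 FPKM in the library labelled siTEAD1/2/3/4. Its groups overlapped, and of the 9 genes it had the narrowest range over the 8 libraries, 0.34 on the log2 scale. The 95% intervals of its log2 change were -0.27 to 0.31 in siHHEX and -0.29 to 0.34 in siYAP/TAZ. Changes inside these intervals were compatible with the libraries, and the intervals do not give the smallest change that would have been called.

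The inhibitor *CDKN1B* (chromosome 12, 12685498 to 12722369, plus strand, 3 exons) was at 15.95 and 17.1 FPKM in siNC, 12.0, 12.9 and 14.6 FPKM in siHHEX, 14.2 and 14.2 FPKM in siYAP/TAZ and 18.2 FPKM in the library labelled siTEAD1/2/3/4. The siHHEX and siYAP/TAZ libraries lay below siNC without overlap, and the library labelled siTEAD1/2/3/4 above it. The siHHEX mean was 79.8% of siNC, but the log2 change of -0.31 (95% interval -0.59 to -0.03) missed the threshold (limma adjusted p = 0.0785). Without siHHEX 3 the change was called (log2 change -0.38, limma adjusted p = 0.0466), and in libraries corrected for GC content and length it was smaller (-0.18, limma adjusted p = 0.372). In siYAP/TAZ the log2 change was -0.20 (limma adjusted p = 0.363).

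*RB1* (chromosome 13, 48303744 to 48599436, plus strand, 27 exons), the brake on E2F factors, was at 11.9 and 12.4 FPKM in siNC and at 6.62, 8.61 and 6.11 FPKM in siHHEX. It was at 9.82 and 12.7 FPKM in siYAP/TAZ and at 12.2 FPKM in the library labelled siTEAD1/2/3/4. The siHHEX libraries lay below the other 5, and the siYAP/TAZ libraries fell on either side of siNC. *RB1* fell in siHHEX to 58.5% of the siNC mean, a log2 change of -0.71 (SE 0.163, limma adjusted p = 0.0142), but was at -0.22 and not called in libraries corrected for GC content and length (limma adjusted p = 0.237). In siYAP/TAZ the log2 change was -0.11 (95% interval -0.52 to 0.29, limma adjusted p = 0.720). The log2 difference of siHHEX from siYAP/TAZ was -0.60 (SE 0.163, limma adjusted p = 0.0203), and this call was lost without siHHEX 1 (-0.56, limma adjusted p = 0.0577) and without siYAP/TAZ 2 (-0.43, limma adjusted p = 0.153).

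The direct comparison of siHHEX with siYAP/TAZ, whose difference uses no siNC level although its error comes from all the libraries, called 2 regulators lower in siHHEX (*CCNE2* and *RB1*) and 1 higher (*CDK4*), against 25.9% and 13.5% of all tested genes. Without a test, the siHHEX libraries lay wholly below siYAP/TAZ for 3 of the 9 (*CDK6*, *CCNE2* and *RB1*) and wholly above it for 2 (*CCND3* and *CDK4*), against 37.8% and 23.0% of all tested genes. All tested genes had a median difference of -0.13 here, which moved to 0.03 when each library was scaled to the same median of the tested genes. Against that median *CDK4* at 0.66 and *CCNE2* and *RB1* at -0.79 and -0.60 still stood on their own side, but after the scaling *RB1* was not called (-0.42, limma adjusted p = 0.0541). For *CCND1* the difference was -0.08 with a 95% interval of -0.55 to 0.38 (limma adjusted p = 0.764), and its sign turned with that scaling (0.12). For *CDK6* it was -0.48 with a 95% interval of -1.06 to 0.10 (limma adjusted p = 0.158). The sign of the *CDK6* difference turned in libraries corrected for GC content and length (0.13, limma adjusted p = 0.719). *CCND3* was 0.49 higher in siHHEX (limma adjusted p = 0.0751), a difference called after the scaling (0.68, limma adjusted p = 0.0311) and without siHHEX 2 (0.60, limma adjusted p = 0.0467). It was smaller, and not called, without siHHEX 3 (0.29, limma adjusted p = 0.147), without siYAP/TAZ 2 (0.32, limma adjusted p = 0.374) and in libraries corrected for GC content and length (0.21, limma adjusted p = 0.435).

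Of the 4 regulators that fell in siHHEX, 3 are low in GC content. The canonical transcripts of *CCNE2*, *RB1* and *CDK6* have GC contents of 34.6%, 37.1% and 39.7%, against a median of 49.1% over the tested genes, whereas *CCND1* has 50.3%, *CDK4* 52.0% and *CCND3* 59.97%. Over all tested genes, sorted by GC content into 5 bins of like size, the median log2 change in siHHEX ran from -0.44 in the bin with 30.7% to 40.8% GC to 0.37 in the bin with 59.0% to 76.0% GC. In siYAP/TAZ the medians of the 5 bins were between 0.07 and 0.09. The variance across genes that GC content and transcript length accounted for, in the difference of a library from the mean of all, was 46.1%, 16.2% and 59.8% in siHHEX 1, 2 and 3. It was 29.4% and 23.97% in siNC, 25.8% and 19.3% in siYAP/TAZ and 11.7% in the library labelled siTEAD1/2/3/4.

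Each library was therefore also corrected for this trend. After the correction *CCND1* kept its siHHEX change (-1.83, limma adjusted p = 0.0048) and *CDK4* kept its rise (0.41, limma adjusted p = 0.0310). With a block on the replicate number added as well, *CDK4* was called neither against siNC nor against siYAP/TAZ. The other regulators that had fallen, *CDK6*, *CCNE2* and *RB1*, were not called, at -0.81, -0.62 and -0.22. The counts after the correction were 1 lower and 1 higher of the 9, with 3.17% and 3.56% of all tested genes. The direct comparison with siYAP/TAZ kept *CDK4* (0.56, limma adjusted p = 0.0134) but not *CCNE2* (-0.29, limma adjusted p = 0.443) or *RB1* (-0.02, limma adjusted p = 0.936), which left 0 lower and 1 higher of the 9, against 3.35% and 5.53% of all tested genes. In siYAP/TAZ the correction left *CCND1* at -1.84 (limma adjusted p = 0.0041) and brought *CDK6* past the threshold (-0.94, limma adjusted p = 0.0347), so that 2 of the 9 were lower, and 0 were higher, against 6.14% and 5.31% of all tested genes. The correction takes off any change that follows GC content or length, whatever its source, and these cannot be told apart here.

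**Figure D4:**
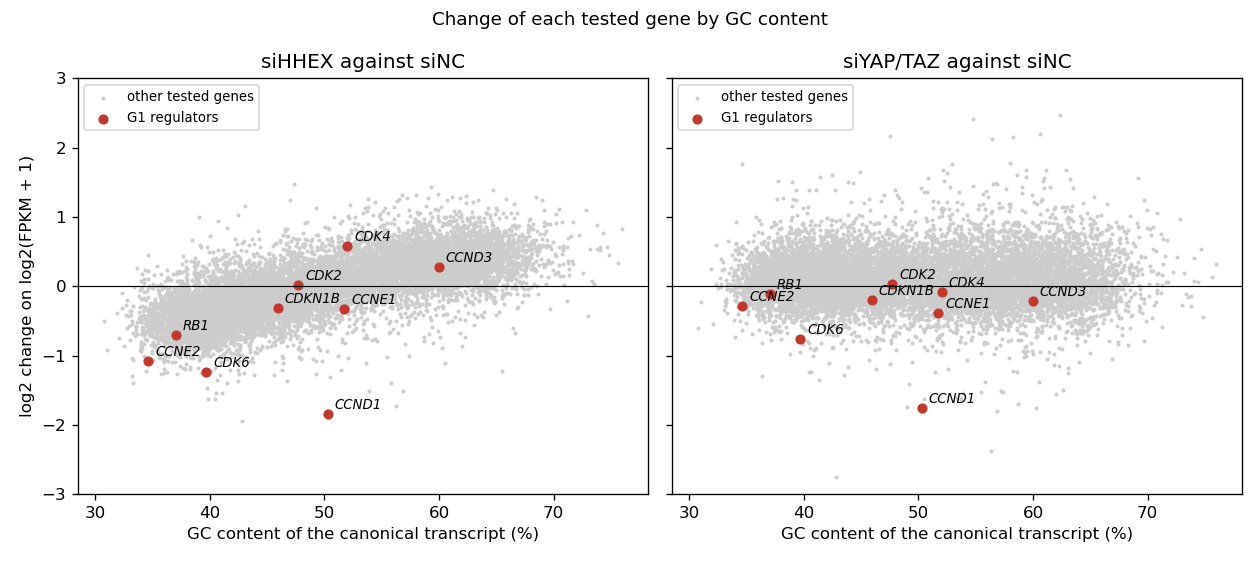
Log2 change of each tested gene, on the log2(FPKM + 1) scale, against the GC content of its canonical transcript in percent, for siHHEX (left) and siYAP/TAZ (right), with the 9 regulators named. In siHHEX *CCNE2*, *RB1* and *CDK6* lie at the low-GC end with changes of -1.08, -0.71 and -1.24, while *CCND1*, at 50.3% GC, lies far below genes of like GC content in both panels.

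The partners and targets of these regulators were taken from 5 lists with 64 genes, of which 62 were tested. In siHHEX 14 of them were lower and 3 higher, against 16.9% and 16.0% of all tested genes, and once libraries were corrected 2 were lower and 0 higher, against 3.17% and 3.56%. In siYAP/TAZ 3 were lower and 1 higher, against 2.13% and 6.15% of all tested genes, and after the correction 8 and 0, against 6.14% and 5.31%. In the library labelled siTEAD1/2/3/4, 0 of the tested list genes were past 2-fold in either direction on the log2(FPKM + 1) scale, against 0.478% and 0.412% of all tested genes. That scale understates the change of low genes, and *RBL2*, a relative of RB1 named after its values were seen, was at 3.42 FPKM there against 1.74 and 1.59 FPKM in siNC (log2 change 0.73).

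Of 7 other genes named as CDK inhibitors, 0 were lower and 1 was higher in siHHEX, against 16.9% and 16.0% of all tested genes. In siYAP/TAZ 0 of 7 were lower and 0 higher, against 2.13% and 6.15%. Their median log2 changes were 0.20 and 0.18, beside -0.01 and 0.08 for all tested genes. The gene that rose was *CDKN2A*, among whose products is the CDK4 and CDK6 inhibitor p16. FPKM per gene does not tell its transcripts apart. It was at 5.77 and 5.98 FPKM in siNC and at 9.46, 8.002 and 8.33 FPKM in siHHEX, a log2 change of 0.48 (limma adjusted p = 0.0366). All 3 siHHEX libraries lay above siNC, but in the corrected libraries the change was 0.02.

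Of the 12 relatives of RB1 and E2F or DP factors, 4 were lower and 1 higher in siHHEX, against 16.9% and 16.0% of all tested genes, with a median log2 change of -0.28. *E2F3*, an activator of S phase genes, was at 10.1 and 10.2 FPKM in siNC and at 5.21, 5.08 and 7.32 FPKM in siHHEX (log2 change -0.72, limma adjusted p = 0.0136). *E2F7*, a repressor, was at 6.29 and 7.36 FPKM in siNC and at 3.94, 4.30 and 3.58 FPKM in siHHEX (-0.66, limma adjusted p = 0.0126). *E2F1*, the best-known activator of the family, moved the other way, from 14.5 and 12.1 FPKM in siNC to 26.98, 22.2 and 24.6 FPKM in siHHEX (0.84, limma adjusted p = 0.0089). These factors thus did not move in 1 direction. After the correction 0 of the 12 were called in siHHEX, against 3.17% lower and 3.56% higher of all tested genes. *E2F1* was then at 0.50 (limma adjusted p = 0.0884). In siYAP/TAZ 0 of the 12 were lower and 1 was higher, against 2.13% and 6.15% of all tested genes. The 1 called was *TFDP2*, a dimer partner of E2F factors, which was at 2.55 and 2.73 FPKM in siNC and at 4.88 and 3.97 FPKM in siYAP/TAZ (0.57, limma adjusted p = 0.0483) and was not called after the correction (0.41, limma adjusted p = 0.0618). After the correction 1 of the 12 was called lower in siYAP/TAZ and 0 higher, against 6.14% and 5.31% of all tested genes. It was the repressor *E2F6*, named after its values were seen (-0.55, limma adjusted p = 0.0366). Before the correction the median over the list was -0.20 in siYAP/TAZ.

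Among 8 genes of CDK activation and of the phosphorylation that switches CDKs off, 2 were lower in siHHEX and 1 in siYAP/TAZ, against 16.9% and 2.13% of all tested genes, with median log2 changes of -0.19 and -0.04. *WEE1*, a kinase that inhibits CDK1 and CDK2, was at 24.4 and 22.9 FPKM in siNC and at 16.2, 16.6 and 17.7 FPKM in siHHEX (-0.47, limma adjusted p = 0.0219). *CCNH*, the cyclin of the CDK-activating kinase, was at 5.92 and 5.94 FPKM in siNC and at 4.05, 4.36 and 4.12 FPKM in siHHEX (-0.42, limma adjusted p = 0.0362). Neither was called in the corrected libraries, at -0.32 for *WEE1* and -0.25 for *CCNH* (limma adjusted p = 0.128 and 0.167). *PKMYT1*, a kinase that inhibits CDK1, was at 33.4 and 33.5 FPKM in siNC and at 25.1 and 19.5 FPKM in siYAP/TAZ (-0.57, limma adjusted p = 0.0390), and its siHHEX libraries, at 35.8, 34.3 and 34.5 FPKM, did not go below siNC. Of 13 genes of the turnover of G1 regulators, 11 were tested. Against siNC and before the correction, 1 was lower and 0 higher in siHHEX, beside 16.9% and 16.0% of all tested genes, and 0 were called in siYAP/TAZ, beside 2.13% and 6.15%. The 1 called was *CUL1*, the scaffold of the SCF ubiquitin ligase, lower in siHHEX at 19.3, 21.2 and 17.4 FPKM against 27.6 and 26.9 FPKM in siNC (-0.48, limma adjusted p = 0.0183), and its call was lost in the corrected libraries (-0.23, limma adjusted p = 0.152). In those libraries 2 others of the 11 were called lower in siYAP/TAZ than in siNC, beside 6.14% of all tested genes, and are named after their values were seen. They were *SKP2*, the F-box protein that marks p27 for breakdown (-0.64, limma adjusted p = 0.0244), and *CKS2*, which binds CDKs (-0.44, limma adjusted p = 0.0465).

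The list of S phase cyclin and E2F target genes had 24 members. In siHHEX 7 were lower and 1 higher, against 16.9% and 16.0% of all tested genes, with a median log2 change of -0.04. In siYAP/TAZ 2 were lower and 0 higher, against 2.13% and 6.15%, with a median of -0.19. *CCNA2*, the S phase cyclin that follows cyclin E, was at 67.1 and 66.7 FPKM in siNC, 38.4, 45.5 and 36.1 FPKM in siHHEX and 49.0 and 47.4 FPKM in siYAP/TAZ. All knockdown libraries of these groups lay below siNC, and the log2 changes were -0.73 (limma adjusted p = 0.0064) and -0.46 (limma adjusted p = 0.0638). *UHRF1*, which maintains DNA methylation at replication, was at 44.6 and 46.4 FPKM in siNC, 22.8, 35.0 and 28.4 FPKM in siHHEX and 25.4 and 24.9 FPKM in siYAP/TAZ. Its log2 changes were -0.67 (limma adjusted p = 0.0173) and -0.83 (limma adjusted p = 0.0276), so that it fell in both. *CCNA2* and *UHRF1* were also the genes of this list still called in siHHEX after the correction, at -0.42 and -0.85 (limma adjusted p = 0.0352 and 0.0233). In siYAP/TAZ 4 of the 24 were then lower and 0 higher, against 6.14% and 5.31% of all tested genes, with a median of -0.27. They were *UHRF1* (-0.92, limma adjusted p = 0.0164), *GINS1* (-0.77, limma adjusted p = 0.0150), *CCNA2* (-0.54, limma adjusted p = 0.0164) and *MCM7* (-0.38, limma adjusted p = 0.0347). *MCM7* is named after its values were seen.

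*MYBL2*, a transcription factor of cell cycle genes, rose in siHHEX, from 59.1 and 62.4 FPKM in siNC to 84.2, 81.8 and 116.7 FPKM (0.61, limma adjusted p = 0.0267), and was not called after the correction (0.29, limma adjusted p = 0.227). *GINS1*, a subunit of the replicative helicase, fell in siYAP/TAZ, to 15.1 and 12.0 FPKM from 22.3 and 22.4 FPKM in siNC (-0.69, limma adjusted p = 0.0343). Its siHHEX libraries lay on both sides of siNC, at 19.3, 24.7 and 20.3 FPKM (-0.07, limma adjusted p = 0.731).

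**Figure D5:**
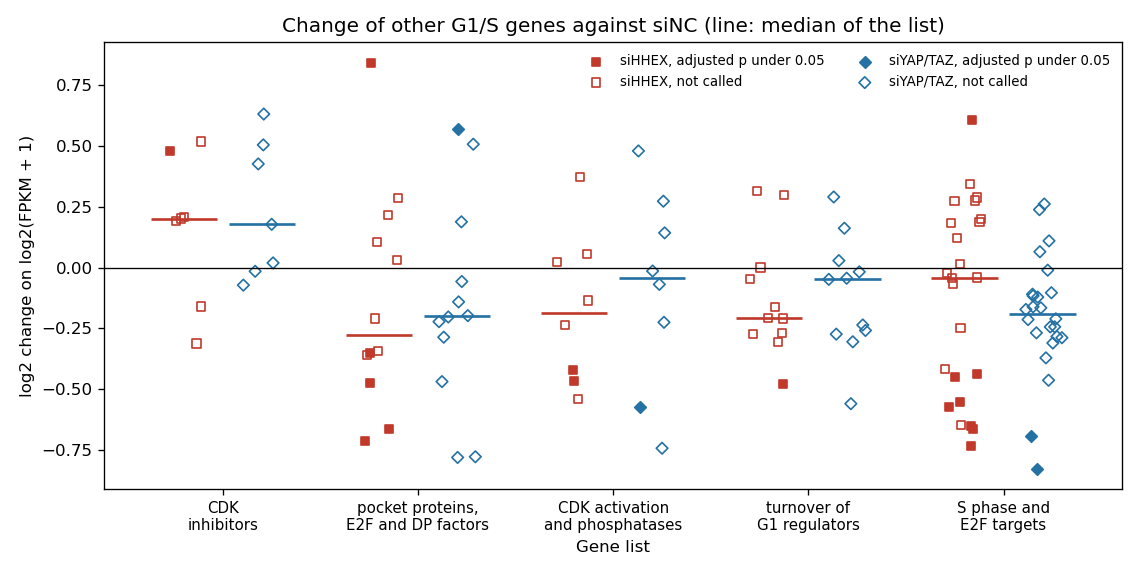
Log2 change against siNC of the tested genes of 5 lists of G1 and S phase genes, on the log2(FPKM + 1) scale; filled points have an adjusted p under 0.05 from limma and lines are list medians. Most points lie within 0.5 of 0 in both knockdowns, and the highest called gene is *E2F1* at 0.84 in siHHEX.

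The genes whose pattern over the 8 libraries was most like that of each regulator were sought among the 2389 tested genes with a range of at least 1 on the log2 scale. The coefficients are descriptions over libraries that share their groups and carry no p-value. *CCND1* was most like *SMAD3* (Pearson r = 0.981), *SAV1* (0.981) and *ANKRD33B* (0.977), and *CDK6* was most like *FERMT2* (0.963), *ENC1* (0.953) and *HHEX* (0.948), the last of which was itself knocked down in 3 of these libraries. *CDK4* was most like *THOC6*, *UQCC3* and *NTHL1* (each 0.985), and *CCND3* was most like *PHLDA3* (0.993), *TMUB1* (0.969) and *MON1A* (0.967). *RB1* was most like *CTDSPL2* (0.989), *SF3B1* (0.986) and *ID2* (0.980). *CCNE2* was most like *SCYL2* (0.960), *LMAN1* (0.951) and *RMND5A* (0.948), and *CDKN1B* was most like *SMAD7* (0.952), *TGFBR3* (0.944) and *DNMBP* (0.928). For *CCNE1* the first 3 were *ANGPTL4* (0.932), *BYSL* (0.924) and *TRIM16* (0.861), and for *CDK2*, the gene with the narrowest range, *BRICD5* (0.907), *DSG2* (0.797) and *HES1* (0.796).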

How the data were processed

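RNA was extracted with Trizol and sequenced on an Illumina instrument. The deposited files hold FPKM per gene and library, made by the authors; their processing notes name Trimmomatic 0.36, HISAT2 2.0.5, Cufflinks 2.2.1 and HTSeq 0.9.1. The genome build and annotation behind the FPKM are not given in the sources used here. Fragment counts were not used, so absolute depth is unknown; the spacing of low values put the depth of the libraries at 0.947 to 1.07 times that of siNC 1. Summed FPKM was 331663 to 383423 per library.

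FPKM + 1 was log2-transformed and the genes that reached 1 FPKM in 2 or more libraries were fitted with limma 3.58.1 (R 4.3.3), with a trend, in 1 fit of 4 groups (4 residual degrees of freedom) and Benjamini-Hochberg adjustment over 10677 genes. Within siHHEX and siYAP/TAZ the libraries carried different siRNAs, so each came from its own transfection. Nothing in the labels says whether the siNC libraries did, or whether any group was repeated independently. The p-values thus measure the spread between these libraries, which in siHHEX and siYAP/TAZ holds the difference between siRNAs. Transcript length and GC content were taken from GENCODE 44 (GRCh38, canonical transcripts) for 99.4% of tested genes, and each library was corrected for both by natural splines (4 degrees of freedom). Genes named by rule are the 10 regulators, at most 4 genes of each list (the 2 lowest and 2 highest siHHEX changes among those called in siHHEX or siYAP/TAZ) and the 3 genes most like each regulator. Knockdown targets and cell type markers are named besides. *RBL2*, *E2F6*, *SKP2*, *CKS2* and *MCM7* were added after their values were seen. The regulators and lists were chosen with earlier results of these data known. Alternatives were another pseudocount (0.1), no filter, fewer groups in the fit, a replicate block, median scaling, the GC and length correction, leaving out libraries, and a 2-fold criterion with an unadjusted p under 0.05.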

Additional observations from a re-analysis of the deposited data

How the results depend on the processing

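Counts of regulators called under the alternatives were as follows. With no filter on low values 2 were lower in siHHEX (*CCND1* and *CCNE2*, against 5.35% of all genes tested, with *CDK6* and *RB1* at limma adjusted p = 0.0553 and 0.05002) and 0 lower in siHHEX than in siYAP/TAZ (13.7%). With the correction for GC content and length 1 was lower in siHHEX (3.17% of all genes tested), 2 were lower in siYAP/TAZ (6.14%) and 0 were lower in siHHEX than in siYAP/TAZ (3.35%). Of the list genes 2 were then lower and 0 higher in siHHEX (3.17% and 3.56%) and 8 lower and 0 higher in siYAP/TAZ (6.14% and 5.31%). With this correction and the replicate block together, 1 was lower (*CCND1*) and 0 higher in siHHEX (0.942% and 0.612% of all genes tested), 2 were lower in siYAP/TAZ (4.60%), and 0 were lower and 0 higher in siHHEX than in siYAP/TAZ (0.998% and 0.923%). *CDK4* thus lost its calls in both siHHEX comparisons. Fitting only the groups compared gave 2 lower in siYAP/TAZ (5.05%). Median scaling gave 1 lower and 2 higher in siHHEX than in siYAP/TAZ (14.2% and 23.5%). By a fold above 2 with an unadjusted p under 0.05, 0 were higher in siHHEX than in siNC (0.702%), and 0 lower and 0 higher than in siYAP/TAZ (1.28% and 0.234%). Leaving out 1 library gave 1 to 5 lower and 0 to 1 higher in siHHEX (0.0843% to 24.9% and 0.0937% to 20.4% of all genes tested), 0 to 2 lower in siYAP/TAZ (0.0656% to 3.46%), and 0 to 2 lower and 1 to 2 higher in siHHEX than in siYAP/TAZ (5.79% to 31.9% and 3.82% to 16.4%). Without either siNC library the siHHEX calls of *CDK4*, *CDK6*, *CCNE2* and *RB1* were lost and that of *CCND1* was kept, with the lone siNC library assumed to vary like the other groups. Without siHHEX 1 the calls of *CCNE2* and *RB1* against siYAP/TAZ were lost (limma adjusted p = 0.0514 and 0.0577).

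Same-numbered libraries did not visibly deviate together (correlations of -0.07 to 0.02). In a group of 2 libraries the deviations mirror each other, and within siHHEX and siYAP/TAZ they hold the difference between siRNAs. The check therefore cannot exclude that the numbers pair libraries or mark a shared batch. Number 3 occurs only in siHHEX, so a block on the replicate number leaves siHHEX 3 out of the siHHEX change. In that fit 5 regulators were lower in siHHEX (*CCNE1* added, log2 change -0.60, limma adjusted p = 0.0415), and 2 were lower in siYAP/TAZ (*CDK6* added, limma adjusted p = 0.0196). Of all tested genes 9.73% were then lower in siHHEX and 2.36% lower in siYAP/TAZ.

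Some changes that no setting called turned their sign. In siHHEX *CCND3* was at -0.086 after the correction and -0.24 with the block added, and *CDK2* ranged from -0.034 to 0.059 with 1 library left out. In siYAP/TAZ *CDK2* was at -0.091 with median scaling and -0.034 after the correction, without and with the block, and with 1 library left out ranged from -0.14 to 0.19, *CCNE2* from -0.68 to 0.10 and *RB1* from -0.28 to 0.053. Between siHHEX and siYAP/TAZ, *CCND1* was at 0.063 with the block, 0.12 with median scaling, 0.014 after the correction and 0.16 with correction and block, and ranged from -0.41 to 0.25 with 1 library left out. *CDK6* was at 0.13 after the correction and 0.37 with the block added. *CCNE1* was at -0.21 with the block, -0.025 after the correction and -0.28 with both, and ranged from -0.21 to 0.34 with 1 library left out. *CDK2* was at 0.0083 with the block, 0.19 with median scaling, 0.094 after the correction and 0.10 with both, and ranged from -0.17 to 0.16 with 1 library left out, and *CDKN1B* was at 0.080 with median scaling and 0.090 after the correction. The causes were not tested. Depth in fragments is unknown, so no limit set by depth is given.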
